A study of Homo sapiens with 18 samples.

Results

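The cytosolic proline tRNAs of the human cell line WPMY-1, immortalised myofibroblasts from prostate stroma, were examined for N1-methyladenosine (m1A) with m1A-MAP-seq. This sequencing assay reads m1A from mismatches made by reverse transcriptase. The members are all listed adenosines of the genes whose names start with tRNA-Pro-AGG, tRNA-Pro-CGG or tRNA-Pro-TGG, after their anticodons, written here without the leading tRNA. They make up 53 of 725 adenosine sites and 7 of 180 tRNA genes. Pro-AGG has 16 sites in 2 genes, Pro-CGG has 16 sites in 2 genes and Pro-TGG has 21 sites in 3 genes. The cells carried an shRNA against TRMT61A (the knockdown) or an empty vector, and the labels name no other allele or agent. For each line there were 3 libraries of input RNA, 3 of RNA precipitated with an m1A antibody and left without AlkB (untreated IP), and 3 of precipitated RNA treated with the demethylase AlkB (treated IP), 18 libraries in all. Knockdown cells are 1 shRNA line, and the labels do not say whether it is a clone or whether replicates came from separate cultures. P-values therefore cover the spread between libraries only, and part of it may be technical. TRMT61A mRNA was not analysed here, so the knockdown itself was not checked.

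TRMT61A is the catalytic subunit of the nuclear TRMT6/TRMT61A methyltransferase, which places m1A at position 58 in the T loop of cytosolic tRNAs. The adenosine at position 58 pairs with the base at position 54 inside the T loop and helps to hold the elbow of the folded tRNA together. The methyl group sits on the base-pairing face, so reverse transcriptase either stops next to it or inserts a wrong base, and AlkB removes it. Proline tRNAs read the codons that begin with CC. The AGG anticodon is read with its first base deaminated to inosine in eukaryotes, which lets 1 tRNA serve several proline codons, and the CGG and TGG anticodons serve the others. The first anticodon base of Pro-AGG is not among the listed sites, so its mismatches are not reported.

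Each gene is 72 nucleotides long, and the 7 listed sequences stand for 20 gene copies. Coordinates are those of the deposited table (hg38, 1-based), and each of the 7 genes matched a RefSeq tRNA gene. Pro-AGG-2-1, on the minus strand of chromosome 1 at chr1:167715488-167715559, is shown in full because the other genes are described by their differences from it. Capitals mark the anticodon and the adenosine at nucleotide 57, which is position 58 of the standard tRNA numbering.
Pro-AGG-2-1: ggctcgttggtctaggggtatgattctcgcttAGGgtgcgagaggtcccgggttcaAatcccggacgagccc
The genes differ from each other by a few bases in and next to the anticodon, so nucleotides 28 to 40 are shown for all of them, with capitals for bases that differ from Pro-AGG-2-1.
Pro-AGG-1-1 (chr16:3192016-3192028, plus strand): cgcttaggAtgcg
Pro-AGG-2-1 (chr1:167715520-167715532, minus strand): cgcttagggtgcg
Pro-CGG-1-1 (chr1:167714752-167714764, plus strand): cgcttCgggtgcg
Pro-CGG-2-1 (chr6:27091769-27091781, plus strand): cgcttCgggtgTg
Pro-TGG-1-1 (chr14:20633033-20633045, plus strand): cgcttTgggtgcg
Pro-TGG-2-1 (chr11:76235857-76235869, minus strand): cgGttTgggtCcg
Pro-TGG-3-2 (chr14:20684043-20684055, plus strand): cgcttTgggtgcg
Counted from the 5′ end of the gene, with the base of Pro-AGG-2-1 first, the substitutions were G36A in Pro-AGG-1-1, A33C in Pro-CGG-1-1, A33C and C39T in Pro-CGG-2-1, and A33T in Pro-TGG-3-2. Pro-TGG-1-1 carried G16T and A33T, and Pro-TGG-2-1 carried C30G, A33T and G38C. Identity with Pro-AGG-2-1 was thus between 95.8% and 98.6%. Nucleotides 1 to 15 and 40 to 72 were the same in every gene.

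The T loop and the 3′ end are therefore 33 identical nucleotides, and the deposited reads there did not tell the genes apart. At the acceptor-stem adenosines A65 and A68 each gene held between 11.8% and 16.7% of the proline reads in every library. Set against equal shares, the chi-square per degree of freedom had a median over 18 libraries of 1.02 at A65, 1.02 at A68, 1.07 at A57, 0.94 at A58 and 1.18 at A56. In the D arm, whose reads can reach the bases that differ, the medians were 16.97 at A14, 9.97 at A20 and 10.99 at A23. Single-gene values in the T loop and at the 3′ end are uncertain and not independent of each other, so the proline reads are given summed as well as by gene. In the D arm the genes did differ: at A23, Pro-TGG-2-1 held 397 reads in knockdown untreated IP replicate 1 and 7 and 5 reads in replicates 2 and 3. Pro-TGG-3-2 held 309 of the 697 reads at A23, or 44.3%, in knockdown untreated IP replicate 2, while its mean share in input was 20.9% in knockdown and 20.7% in vector.

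Reads summed over all sites of the table ranged from 225301 to 279357 in knockdown input, 251182 to 307981 in vector input, 209476 to 890428 in knockdown untreated IP, 707780 to 832125 in vector untreated IP, 115580 to 848741 in knockdown treated IP and 186539 to 373039 in vector treated IP. The proline sites took 4845 to 5680 of these in knockdown input, 5494 to 7129 in vector input, 10136 to 61295 in knockdown untreated IP, 13952 to 35929 in vector untreated IP, 3889 to 43957 in knockdown treated IP and 13740 to 15655 in vector treated IP. The best covered proline site had 2838 reads, well under the highest count in the table, 8015. No pair of replicates agreed within counting noise: chi-square divided by its degrees of freedom lay between 1.60 and 444.

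Mismatches at position 58 were rare in every group. With reads pooled over the 7 genes, A57 was mismatched in 0.742%, 0.253% and 0.666% of reads in the knockdown untreated IP libraries and in 0.733%, 0.460% and 0.862% in the vector untreated IP libraries. The treated IP libraries had 0.425%, 0.717% and 1.35% in knockdown and 0.628%, 0.499% and 0.791% in vector. The groups overlapped, and no library exceeded 1.35%. In input, 1 of 439 reads was mismatched in knockdown, a mean of 0.233% ± 0.404 (SD, n = 3), and 1 of 495 in vector, a mean of 0.181% ± 0.314 (SD, n = 3). Input had only 134 to 184 reads per library at this site. Over the group a count of 0 would allow up to 0.683% in knockdown and up to 0.606% in vector, limits that cover counting error only. Since 1 mismatched read was counted in each group, the rates that these data allow are higher than those limits. The means were 0.554% ± 0.263 in knockdown and 0.685% ± 0.205 in vector for the untreated IP, and 0.831% ± 0.474 in knockdown and 0.639% ± 0.146 in vector for the treated IP (SD, n = 3 each). Over the 7 comparisons of knockdown with vector, treated with untreated IP and untreated IP with input, the two-sided exact permutation p ran from 0.2 to 1, where 3 against 3 libraries cannot go below 0.1.

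The adenosines on either side of position 58 carried mismatches at similar rates. In the untreated IP, A56 had 0.846% in knockdown and 1.04% in vector, and A58 had 0.755% in knockdown and 0.603% in vector. In the treated IP, A56 had 0.787% in knockdown and 0.819% in vector, and A58 had 0.857% in knockdown and 0.605% in vector. In no IP group was position 58 above both of its neighbours by more than the spread of its libraries. With the treated and untreated parts of an immunoprecipitation averaged, A57 minus A56 was -0.20 ± 0.22 percentage points and lay below 0 in 5 of 6 immunoprecipitations (two-sided exact permutation of signs, p = 0.09375, adjusted over 2 tests 0.1875, smallest possible 0.03125). A57 minus A58 was -0.03 ± 0.23 percentage points, below 0 in 3 of 6 (exact p = 0.75).

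Among the other proline sites A14, in the D loop, had group means between 0.299% and 1.18%. It had 0.956% in knockdown and 0.857% in vector input, 0.963% in knockdown and 0.299% in vector untreated IP, and 0.690% in knockdown and 1.18% in vector treated IP. The untreated IP means rest on unequal depth: vector replicates 2 and 3 had 0 mismatched of 28 and of 20 reads, and with reads pooled over the libraries the rates were 1.04% in knockdown and 0.825% in vector. Group means ran from 0.179% to 0.584% at A20 and from 0% to 0.309% at A23, where the vector untreated IP had 0 mismatched of 605 reads, which allows up to 0.496%. The acceptor-stem adenosines had group means between 0.295% and 0.374% at A65 and between 0.226% and 0.401% at A68.

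**Figure D1:**
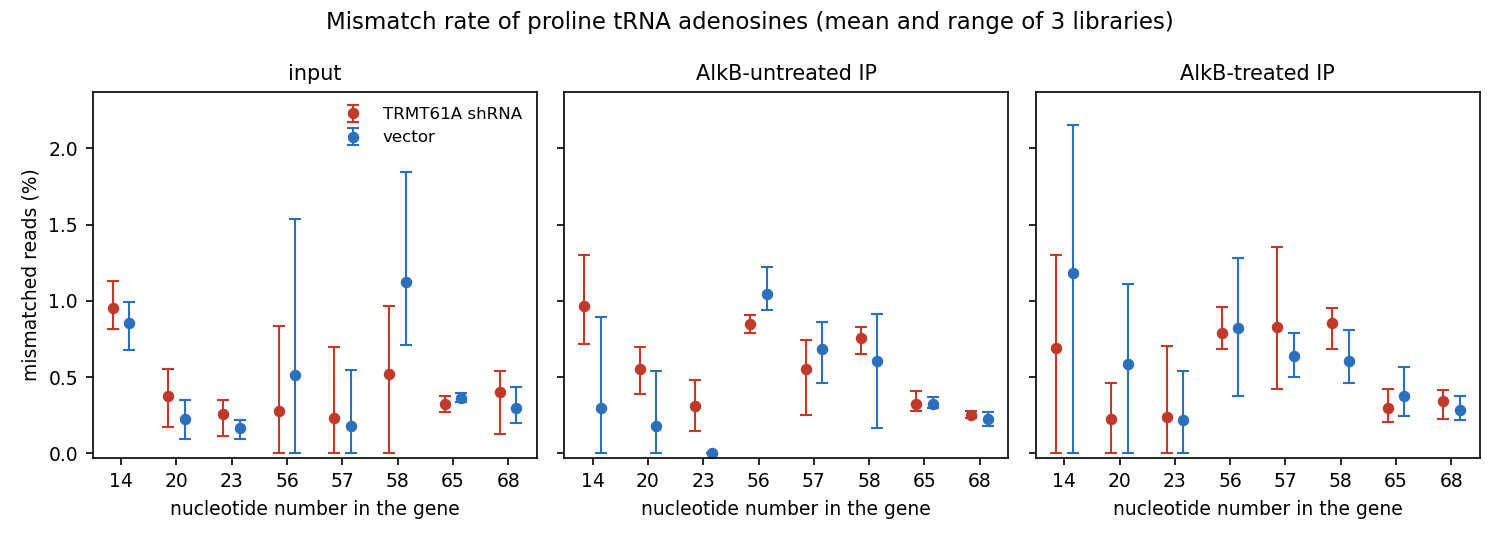
Mismatched reads (percent, y axis) at the 8 listed adenosines of the proline tRNAs by nucleotide number (x axis), reads pooled over genes; points are means and bars the range of 3 libraries, knockdown left of vector. Nucleotide 57, position 58, stayed at or below 1.35% in all 18 libraries and lay at the level of nucleotides 56 and 58 in both kinds of IP.

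No proline site passed the threshold (adjusted p under 0.05, quasi-binomial model in R, Benjamini-Hochberg over all sites tested) in any of the 7 comparisons. For knockdown against vector, the count was 0 of 38 tested proline sites in input, where 0.528% of all sites were called, 0 of 35 in the untreated IP (0% called) and 0 of 44 in the treated IP (0% called). For treated against untreated IP it was 0 of 42 in knockdown (0.402% called) and 0 of 35 in vector (0% called), and for untreated IP against input 0 of 31 in knockdown (0% called) and 0 of 20 in vector (0% called). At an unadjusted p under 0.05 there were 1, 1, 4, 1, 0, 0 and 0 proline sites in the same order, beside 35 of 379, 21 of 255, 31 of 359, 13 of 249, 8 of 251, 5 of 190 and 14 of 202 of all sites tested. limma on logit rates called 0 in each comparison as well. In simulated input data the model recovered 80% of sites set to a rate of 10% but 0% of 8-fold changes of low rates, so these counts do not show that rates were equal.

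The proline sites with the smallest unadjusted p rested on few mismatched reads, and their adjusted p ran from 0.424 to 0.968. In input, Pro-TGG-2-1 A20 had 2 of 290 mismatched in knockdown and 0 of 268 in vector, Pro-CGG-1-1 A20 had 4 of 540 and 0 of 548, and in the other direction Pro-TGG-2-1 A58 had 0 of 211 and 2 of 237 and Pro-AGG-1-1 A20 had 0 of 527 and 1 of 506. In the untreated IP, Pro-TGG-1-1 A68 had 10 of 4442 mismatched in knockdown and 4 of 3285 in vector, Pro-CGG-2-1 A57 had 12 of 1270 and 6 of 1121, and in the other direction Pro-TGG-3-2 A56 had 6 of 1139 and 15 of 1015 and Pro-AGG-1-1 A56 had 9 of 1089 and 12 of 985. In the treated IP, Pro-CGG-2-1 A20 had 3 of 310 mismatched in knockdown and 0 of 268 in vector, Pro-CGG-1-1 A56 had 9 of 870 and 4 of 696, and in the other direction Pro-CGG-1-1 A20 had 0 of 342 and 2 of 287 and Pro-CGG-1-1 A23 had 0 of 333 and 2 of 272. A handful of reads separated the lines at each of these sites.

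The AlkB and IP comparisons gave the same picture. In knockdown, Pro-AGG-2-1 A68 had 9 of 2667 mismatched in the treated and 8 of 4428 in the untreated IP, Pro-TGG-2-1 A58 had 18 of 1532 and 19 of 2534, and in the other direction Pro-TGG-3-2 A65 had 6 of 2663 and 22 of 4476 and Pro-TGG-3-2 A57 had 6 of 1090 and 12 of 1295. In vector, Pro-TGG-1-1 A65 had 7 of 1529 mismatched in the treated and 10 of 3285 in the untreated IP, Pro-CGG-2-1 A68 had 7 of 1570 and 5 of 3190, and in the other direction Pro-AGG-1-1 A57 had 5 of 892 and 10 of 1098 and Pro-CGG-1-1 A56 had 4 of 696 and 10 of 992. None of these sites is called, and those at A57 do not stand out among them. Between the untreated IP and input of knockdown, Pro-CGG-1-1 A14 had 9 of 929 and 4 of 536, Pro-CGG-2-1 A23 had 5 of 924 and 2 of 526, and in the other direction Pro-CGG-2-1 A65 had 19 of 4434 and 2 of 355 and Pro-AGG-2-1 A68 had 8 of 4428 and 2 of 376. Between the untreated IP and input of vector, Pro-TGG-3-2 A65 had 10 of 3334 and 1 of 529, Pro-CGG-1-1 A68 had 11 of 3254 and 1 of 509, and in the other direction Pro-AGG-2-1 A68 had 5 of 3324 and 4 of 544 and Pro-CGG-2-1 A58 had 16 of 1654 and 5 of 247.

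Coverage along the proline tRNAs was uneven, with a deep gap at the T loop in input. Reads at the 3′ end were the median of A65 and A68, which lie within 8 nucleotides of the end. Input coverage dropped between the acceptor stem and A56, the lowest of the listed sites, and was high again in the D arm. The proline sum at A57 was 143, 134 and 162 reads in knockdown input, against 922, 803 and 745 at the 3′ end. In vector input it was 184, 142 and 169 reads, against 1388, 1009.5 and 1184 at the 3′ end. Reads in the 5′ part, the median of A14, A20 and A23 over the 6 genes with such sites, were as many as at the 3′ end or more in most input libraries, while in the IP libraries the 5′ part was the least covered.

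**Figure D2:**
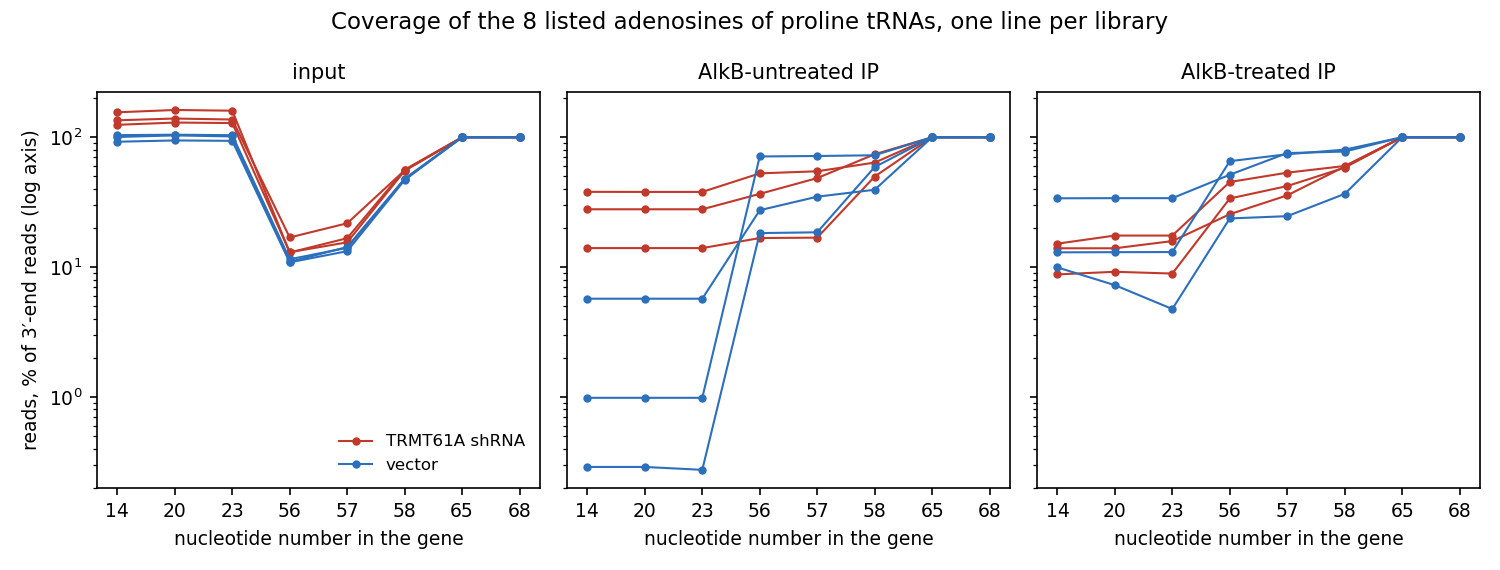
Reads at each listed adenosine as a percent of the 3′-end reads of the same genes (y axis, log scale) by nucleotide number (x axis), 1 line per library and 1 panel per library type, knockdown and vector in different colours. In input all 6 lines dip at nucleotides 56 and 57, and the knockdown lines run above the vector lines in the D arm and at nucleotide 58.

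In input, coverage of the T loop of proline tRNAs relative to the 3′ end was higher in knockdown than in vector. At the step 3′ of position 58 the lines did not overlap. Reads at position 59 (A58) made up 55.2%, 56.3% and 55.6% of 3′-end reads in knockdown input and 46.8%, 47.9% and 47.7% in vector input. The groups did not overlap, with means of 55.7% ± 0.551 in knockdown and 47.5% ± 0.589 in vector (SD, n = 3 each), a ratio of 1.17 (two-sided exact permutation p = 0.1, the smallest possible). The shares rest on 745 to 1388 3′-end reads per library, where counting error alone exceeds these SDs. The limma SE and p-values given next may therefore be too small. With reads summed per amino acid, limma gave a log2 change of 0.23 for proline (SE 0.02, adjusted p = 0.000365), where 22.2% of 9 amino acids were called and proline ranked 3 by size. That limma call held with the replicate number as a block (adjusted p = 0.00804) and without each library in turn (adjusted p from 0.00201 to 0.00518). This ratio and the other steps given next were added after the data were examined.

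By gene, all 7 proline genes were higher at position 59 in knockdown input, with log2 changes from 0.12 in Pro-AGG-2-1 to 0.42 in Pro-AGG-1-1 and a median of 0.22, against 0.05 over all 34 genes tested. 1 of 7 passed the threshold, beside 1 of all 34 genes (2.94%), which is that same gene. Pro-AGG-1-1 had 55.3%, 58.7% and 60.2% in knockdown and 43.6%, 41.3% and 45.1% in vector (log2 0.42, SE 0.05, limma adjusted p = 0.00345). In 6 of 7 genes the libraries of both groups did not overlap, beside 9 of all 34 genes (26.5%), these 6 among them. The exception was Pro-AGG-2-1 with 55.9%, 57.1% and 49.1% in knockdown and 50.7%, 51.9% and 47.0% in vector. Since the reads at this site are the same in sequence for every gene, these are not 7 separate observations. In the other tRNAs with these sites, 35 genes summed, the share at position 59 was 46.6% ± 1.41 in knockdown and 42.7% ± 0.976 in vector (SD, n = 3 each). On the log2 scale proline stood above them by 0.26 in knockdown and 0.15 in vector, without overlap (exact p = 0.1, the smallest possible).

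The next step, from position 59 to position 58, did not differ in the same way. Reads at position 58 were 28.1%, 29.6% and 39.1% of those at position 59 in knockdown input and 28.3%, 29.3% and 29.9% in vector input. The knockdown libraries were spread around and above the vector libraries, with means of 32.3% ± 5.97 in knockdown and 29.2% ± 0.813 in vector (SD, n = 3 each, exact permutation p = 0.7). limma called 0 of 7 proline genes at this step, beside 18.8% of all genes tested, and gave proline summed per amino acid a log2 change of 0.13 (adjusted p = 0.542, beside 30% of 10 amino acids). In the other tRNAs, 47 genes summed, the same step was 24.8% ± 1.39 in knockdown and 17.4% ± 0.538 in vector, without overlap. The log2 ratio of proline to the others was 0.37 in knockdown and 0.74 in vector, again without overlap (exact p = 0.1, the smallest possible). The step from position 58 to position 57 was 79.8% in knockdown and 80.2% in vector.

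Read-through of position 58 is the name used here for reads at A57 as a percent of 3′-end reads, and it combines both steps. Counts are per site, so single reads were not followed from the 3′ end to A57. It was 15.5%, 16.7% and 21.7% in knockdown input and 13.3%, 14.1% and 14.3% in vector input. All knockdown libraries lay above all vector libraries, but replicate 3 of the knockdown carried much of the difference. The means were 17.98% ± 3.31 in knockdown and 13.9% ± 0.538 in vector (SD, n = 3 each), a difference of 4.12 percentage points and a ratio of 1.297 (exact permutation p = 0.1, adjusted over 20 planned tests 0.5). Summed per amino acid, limma gave proline a log2 change of 0.36 with an adjusted p of 0.0745, beside 41.7% of 12 amino acids called. The other tRNAs, 59 genes summed, had 17.3% ± 0.857 in knockdown and 10.5% ± 0.147 in vector. The log2 ratio of proline to this sum was -0.09, -0.05 and 0.26 in knockdown and 0.35, 0.40 and 0.43 in vector. The means were 0.04 and 0.40, without overlap (exact p = 0.1, the smallest possible), and the knockdown mean is above 0 through replicate 3 alone. Genes with many reads weigh most in the sum. By amino acid, proline ranked 3 from the lowest of 12 in knockdown input and 4 in vector input.

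By gene, Pro-TGG-2-1 was 1 of 7 called for read-through in input, beside 30.8% of all genes. It had 17.6%, 20.2% and 23.1% in knockdown and 15.4%, 14.2% and 15.2% in vector (log2 0.43, SE 0.12, limma adjusted p = 0.0494). The call was lost without any 1 of 5 of the 6 libraries. Pro-AGG-2-1, with 17.6%, 22.2% and 18.4% in knockdown and 13.3%, 17.0% and 15.2% in vector, was the only other gene without overlap, which gives 2 of 7 beside 51.9% of all genes.
Pro-AGG-1-1 had 15.4%, 14.3% and 32.7% in knockdown and 12.3%, 9.42% and 14.7% in vector. Pro-CGG-1-1 had 11.5%, 11.0% and 22.6% in knockdown and 10.3%, 10.6% and 13.4% in vector. In both, replicate 3 of the knockdown was far above the other knockdown libraries. Pro-CGG-2-1 had 17.3%, 14.8% and 15.9% in knockdown and 12.9%, 22.3% and 11.8% in vector. Pro-TGG-1-1 had 13.3%, 17.9% and 21.0% in knockdown and 11.2%, 11.9% and 18.7% in vector, and Pro-TGG-3-2 had 15.7%, 16.1% and 17.6% in knockdown and 17.0%, 11.9% and 10.8% in vector. Each value rests on 12 to 37 reads at A57 and 91 to 212 at the 3′ end. The mean change was upward in all 7 genes, from log2 0.10 in Pro-CGG-2-1 to 0.69 in Pro-AGG-1-1. The median was 0.34 against 0.44 over all 52 genes tested, of which 49 were higher. Reads at A57 and the 3′ end did not tell the proline genes apart, so these are not 7 separate observations.

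The 3 anticodons had read-throughs of 20.1% ± 4.76 for AGG, 15.4% ± 3.12 for CGG and 18.1% ± 2.66 for TGG in knockdown input (SD, n = 3 each). In vector input they were closer together, with 13.6% ± 1.13 for AGG, 13.6% ± 2.73 for CGG and 14.0% ± 1.21 for TGG (SD, n = 3 each). The libraries of knockdown and vector did not overlap for AGG, at 16.6% to 25.6% and 12.8% to 14.9%, or for TGG, at 15.5% to 20.8% and 12.6% to 14.8%. They overlapped for CGG, at 12.9% to 18.9% and 11.5% to 16.7%. A57 and the 3′-end sites lie in the stretch that is identical in all 7 genes, where reads did not tell the genes apart. The values are therefore not separate observations of 3 anticodons, and a difference between anticodons was not tested. With reads summed per anticodon limma called none of the 3, beside 37.5% of 24 anticodons.

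**Figure D3:**
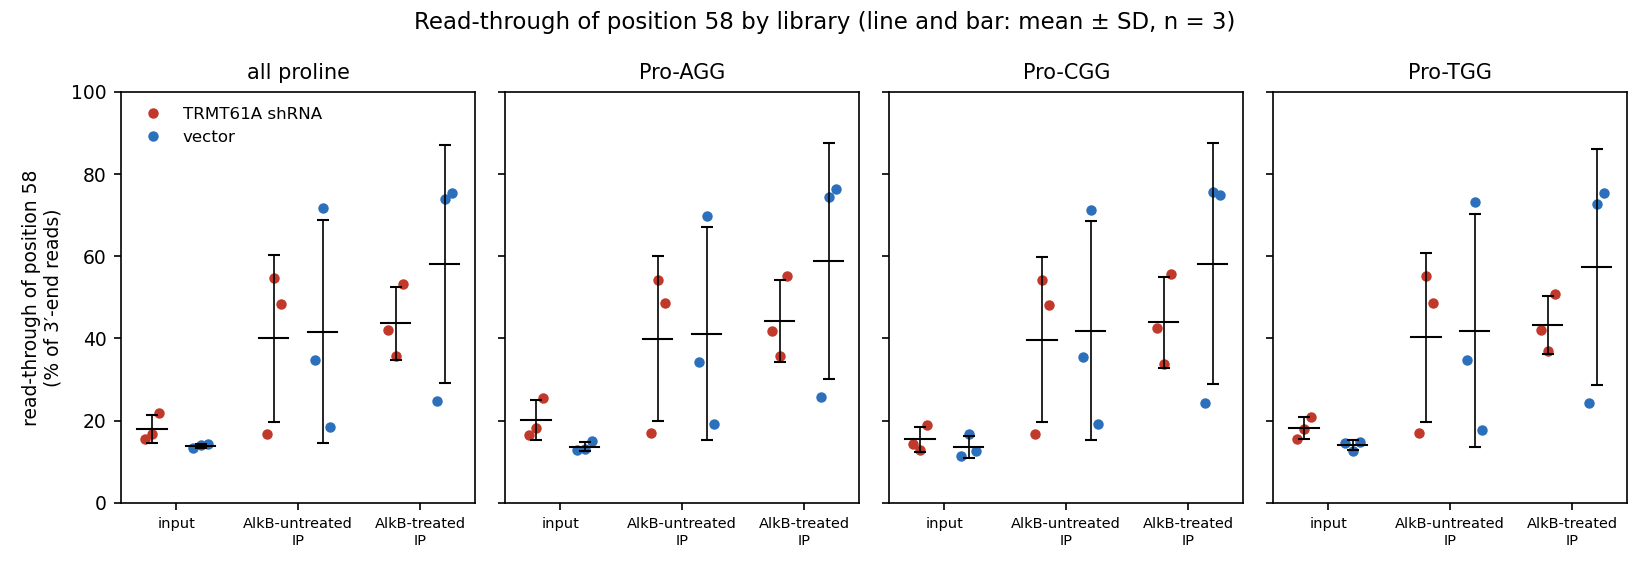
Read-through of position 58 (percent of 3′-end reads, y axis) for all proline tRNAs and for each anticodon, 1 point per library, with lines and bars for the mean ± SD of 3 libraries; knockdown stands left of vector in each library type. In input the proline values lie between 13.3% and 21.7%, while the IP libraries range from 16.9% to 75.5% and overlap between knockdown and vector.

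The 5′ part of proline tRNAs was higher in knockdown input by more than either T-loop measure. Relative to the 3′ end of the same 6 genes it held 129%, 160% and 138% of the reads in knockdown and 94.0%, 104.6% and 102.5% in vector. The groups did not overlap, with means of 143% ± 16.1 in knockdown and 100% ± 5.63 in vector (SD, n = 3 each), a ratio of 1.42 (exact permutation p = 0.1, the smallest possible). Summed per amino acid, limma gave proline a log2 change of 0.50 (SE 0.16, adjusted p = 0.00716), beside 71.4% of 7 amino acids called. This limma call held with a replicate block (adjusted p = 0.0219) and without each library (adjusted p from 0.00920 to 0.0404). The other tRNAs, 31 genes summed, moved further, to 180% ± 5.88 in knockdown against 72.8% ± 2.55 in vector. Proline therefore lay below them by 0.34 on the log2 scale in knockdown and above them by 0.46 in vector, without overlap (exact p = 0.1). Genes with many reads weigh most in such a sum. Gene by gene proline did not move less: the median log2 change was 0.54 over 6 proline genes and 0.45 over all 26 genes tested.

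3 of 6 proline genes passed the threshold for the 5′ part over the 3′ end, each with a limma adjusted p of 0.0423. Over all genes 7 of 26 passed (26.9%), these 3 among them. The 3′-end reads of the proline genes are the same in sequence, so the calls are not independent of each other. Pro-AGG-1-1 had 143%, 160% and 129% in knockdown and 94.3%, 94.2% and 95.7% in vector (log2 0.60). Pro-CGG-1-1 had 139%, 186% and 161% in knockdown and 103%, 114% and 106% in vector (log2 0.58). Pro-TGG-3-2 had 164%, 197% and 224% in knockdown and 109%, 123% and 137% in vector (log2 0.66). In 5 of 6 genes the groups did not overlap, beside 12 of all 26 genes (46.2%), these 5 among them. With any of 5 of the 6 libraries left out, or with a replicate block, none of the 6 genes was called.

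**Figure D4:**
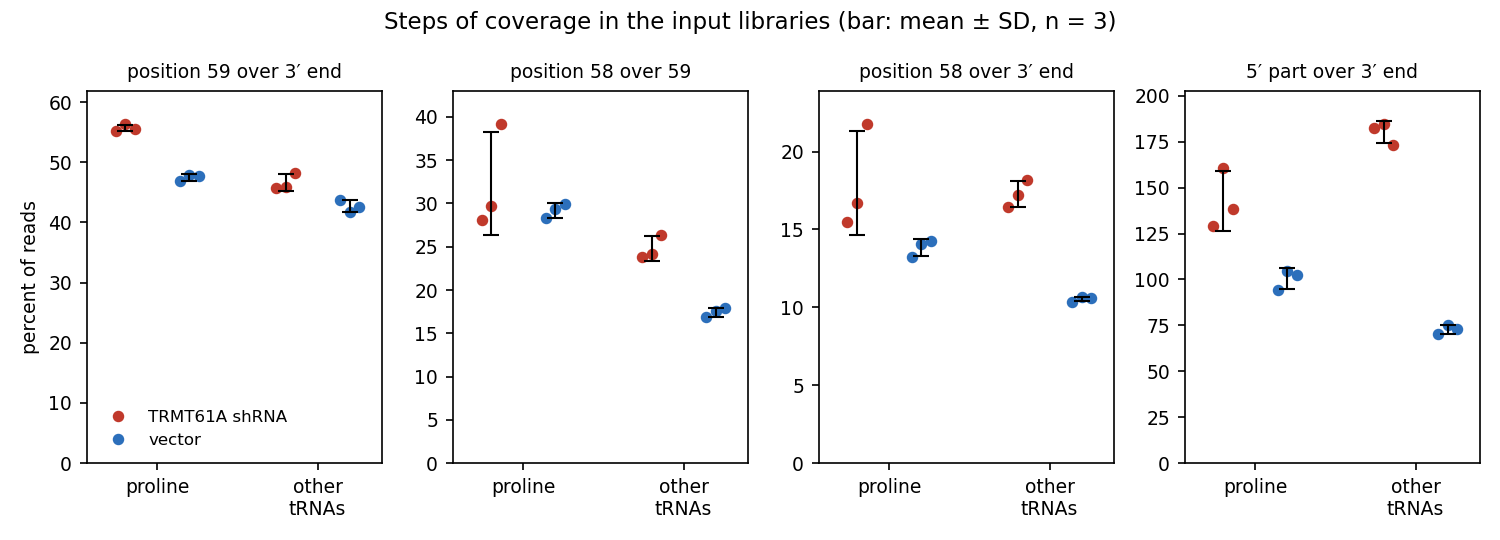
Coverage steps in input (percent of reads, y axis) for proline and for the other tRNAs summed, 1 point per library with bars for the mean ± SD of 3, knockdown left of vector. The share at position 59 separates the lines in proline, 55.7% in knockdown and 47.5% in vector, while the step from 59 to 58 overlaps in proline and does not in the other tRNAs.

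No proline gene was called for its number of reads in input. edgeR's quasi-likelihood test on 3′-end reads called 0 of 7 proline genes for knockdown against vector, beside 41.9% of all genes, with log2 changes from -0.13 to 0.15. On reads of the 5′ part it called 0 of 6, beside 46.3%. Proline took 3.24%, 2.66% and 2.82% of all 3′-end reads in knockdown input and 2.66%, 2.55% and 2.65% in vector input. The lowest knockdown library lay just above the highest vector library (exact permutation p = 0.1). Fewer tRNA molecules and molecules that are read less well cannot be told apart in such counts.

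Among 12 amino acids with enough input reads, proline had one of the lower read-throughs of position 58. In knockdown input it ranked 3 from the lowest, after tyrosine at 3.06% and valine at 16.4% ± 0.796 and before glutamine at 18.4% ± 0.788 (SD, n = 3 each). In vector input it ranked 4, after tyrosine at 1.48%, valine at 8.03% and glutamine at 13.2% ± 0.527. Proline and glutamine overlapped in both lines. Proline and valine overlapped in knockdown, at 15.5% to 21.7% and 15.7% to 17.3%, and did not in vector. The valine sum mixes unlike anticodons, with 1.56% for Val-AAC, 3.88% for Val-CAC and 88.2% for Val-TAC in knockdown input, so its place beside proline is that of a sum. Ranked by anticodon, the 3 proline anticodons took ranks from 5 to 9 of 18 in knockdown and from 6 to 8 of 18 in vector. Reads at these sites did not tell the proline genes apart, so the order among the 3 carries no weight. Leucine, next above, had 28.3% in knockdown and 22.1% in vector, and its lowest library was above the highest proline library in both. At the other end were phenylalanine and initiator methionine, with 87.0% and 92.9% in vector.

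**Figure D5:**
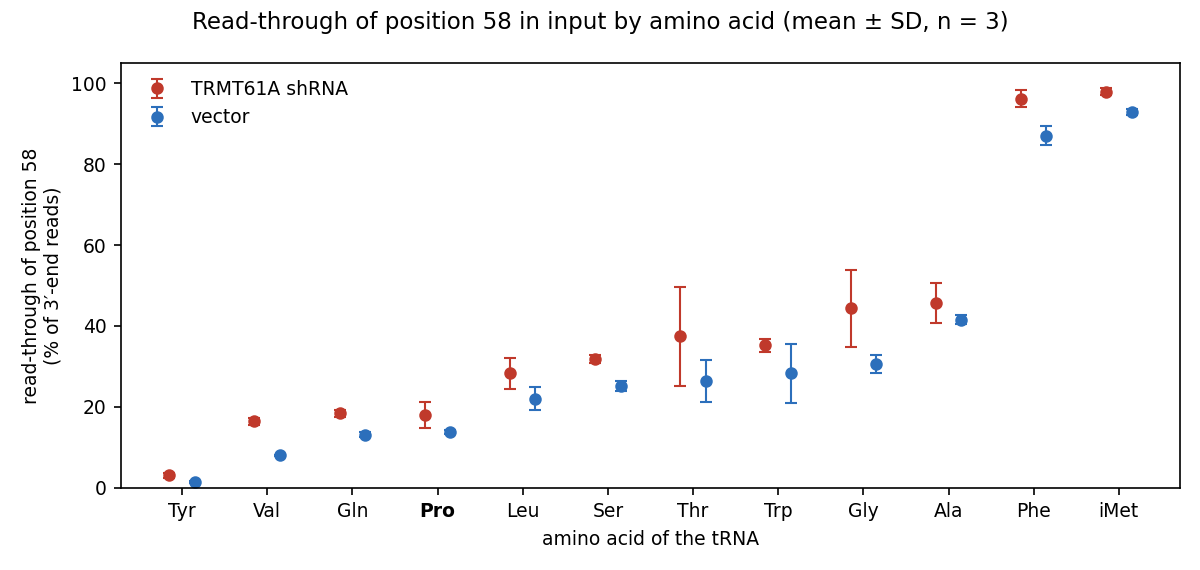
Read-through of position 58 in input (percent of 3′-end reads, y axis) by amino acid of the tRNA in the order of the vector means (x axis), as mean ± SD of 3 libraries, knockdown left of vector. Proline lies at 17.98% in knockdown and 13.9% in vector, next to glutamine and below leucine.

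In the IP libraries read-through of position 58 varied widely between replicates and did not separate the lines. In the untreated IP read-through was 16.9%, 54.7% and 48.5% in knockdown and 34.8%, 71.7% and 18.5% in vector. The ranges coincided, with means of 40.0% ± 20.3 in knockdown and 41.7% ± 27.2 in vector (SD, n = 3 each, exact permutation p = 0.9). In the treated IP it was 42.1%, 35.7% and 53.3% in knockdown and 24.7%, 74.0% and 75.5% in vector. Vector held both the lowest and the highest value, with means of 43.7% ± 8.95 in knockdown and 58.1% ± 28.9 in vector (SD, n = 3 each, exact p = 0.4). limma called 0 of 7 proline genes in the untreated IP, beside 0% of all genes, and 0 of 7 in the treated IP, beside 0%. The 3 anticodons, whose genes the reads at these sites did not tell apart, were nearly equal. They had 39.7% to 40.2% in knockdown and 41.1% to 41.9% in vector for the untreated IP. For the treated IP they had 43.3% to 44.3% in knockdown and 57.4% to 58.9% in vector.

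Relative to the other tRNAs, proline read-through was lower in all 6 untreated IP libraries and not in all treated ones. The log2 ratio of proline to the others was -2.02, -0.08 and -0.56 in knockdown and -0.71, -0.23 and -2.24 in vector for the untreated IP, with means of -0.89 in knockdown and -1.06 in vector. In the treated IP it was -0.62, -0.98 and 0.22 in knockdown and -1.07, 0.05 and 0.08 in vector, with means of -0.46 in knockdown and -0.31 in vector. The vector mean is below 0 through replicate 1 alone, and its other libraries lay just above 0. The other tRNAs had means of 65.8% in knockdown and 76.2% in vector untreated IP, and of 60.4% in knockdown and 64.8% in vector treated IP. For 3′-end reads edgeR called 0 of 7 proline genes in the untreated IP (0% of all genes), with log2 changes from 0.53 to 0.60, and 0 of 7 in the treated IP (0%), with log2 changes from -0.67 to -0.49. The share of proline in all 3′-end reads was 10.3% ± 2.61 in knockdown and 7.05% ± 3.93 in vector untreated IP, and 7.47% ± 2.90 in knockdown and 10.8% ± 5.65 in vector treated IP (SD, n = 3 each).

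In the untreated IP the 5′ part was the region where the lines differed most in proline. It held 14.0%, 37.9% and 27.9% of the 3′-end reads in knockdown and 5.71%, 0.984% and 0.289% in vector. The lowest knockdown library was above the highest vector library. These rest on 2305, 697 and 2292 reads in knockdown and 558, 28 and 20 in vector, with means of 26.6% ± 12.0 in knockdown and 2.33% ± 2.95 in vector (SD, n = 3 each, exact permutation p = 0.1, the smallest possible). limma called 0 of 6 genes, beside 0% of all genes, with log2 changes from 2.83 to 5.34 and adjusted p from 0.173 to 0.310. In 5 of 6 genes the groups did not overlap, beside 5 of all 22 genes tested (22.7%), which are these same 5 proline genes. In vector replicates 2 and 3 the 6 genes share only 28 and 20 reads in the 5′ part. Their 3′-end reads are the same in sequence, so these are not separate observations. The other tRNAs had 189% ± 130 in knockdown and 158% ± 62.1 in vector, and the log2 ratio of proline to them was -2.68 in knockdown and -6.97 in vector, without overlap (exact p = 0.1).

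After AlkB treatment that separation was not seen. The 5′ part held 8.92%, 14.0% and 17.5% in knockdown treated IP and 7.26%, 13.0% and 33.9% in vector treated IP. The ranges overlapped, with means of 13.5% ± 4.30 in knockdown and 18.1% ± 14.0 in vector (SD, n = 3 each, exact p = 0.9), and limma called 0 of 6 genes, beside 0% of all genes.

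Proline read-through with and without AlkB differed by less than the spread of the libraries. Treated against untreated IP gave means of 43.7% and 40.0% in knockdown (exact permutation p = 0.9) and of 58.1% and 41.7% in vector (exact p = 0.5). Treated libraries were higher in 2 of 3 same-number pairs in each line (exact permutation of signs, p = 0.75 in both). With the replicate number as a block limma called 0 of 7 proline genes in knockdown, beside 0% of all genes, and 0 of 7 in vector, beside 8.89%. All 7 genes had a mean change upward in both lines. The medians were 0.26 in knockdown and 0.53 in vector on the log2 scale, against 0.16 and 0.45 over all genes tested. Reads at A57 and the 3′ end did not tell the genes apart, so these are not 7 separate observations. For the 5′ part over the 3′ end limma called 0 of 6 proline genes in knockdown, with a median log2 change of -0.87 and 0% of all genes called, and 0 of 6 in vector, with a median of 3.501 and 0% of all genes called. In vector each treated IP library lay above each untreated one (exact p = 0.1, the smallest possible), and in knockdown the ranges overlapped (exact p = 0.2). At position 59 over the 3′ end limma called 0 of 7 proline genes with AlkB in each line, beside 0% of all genes in both. At position 58 over 59 it called 0 of 7 in knockdown, beside 5.56% of all genes, and 0 of 7 in vector, beside 0%.

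Mean read-through of proline tRNA was higher in immunoprecipitated RNA than in input, with calls per gene that depended on single libraries. The untreated IP against input had means of 40.0% and 17.98% in knockdown, a ratio of 2.22 (exact permutation p = 0.2), and of 41.7% and 13.9% in vector, a ratio of 3.01 without overlap (exact p = 0.1, the smallest possible). These tests leave the pairing aside. Between libraries of the same number the untreated IP was higher in 3 of 3 pairs in knockdown and in 3 of 3 in vector, where an exact permutation of signs gives p = 0.25, the smallest that 3 pairs allow. In knockdown limma with a replicate block called 0 of 7 genes, beside 45.5% of all genes, with a median log2 change of 1.06 against 1.08 over all genes. Without untreated IP replicate 1, 5 of 7 were called, beside 50% of all genes, and without input replicate 1, 5 of 7, beside 53.3%. In vector it called 1 of 7, beside 53.3%. Pro-CGG-2-1 had 34.3%, 75.2% and 19.7% in the untreated IP and 12.9%, 22.3% and 11.8% in input (log2 1.28, SE 0.28, limma adjusted p = 0.0389), and the call was lost without any 1 of 5 of the 6 libraries. The median of the 7 genes was 1.32, against 1.77 over all genes, and 5 of 7 did not overlap, beside 75.6%. In both lines the counts of proline genes are not counts of separate observations, since reads at these sites did not tell the genes apart.

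On the log2 scale the change in vector was 1.37 with reads summed over proline, of which 1.15 lay at the step from position 59 to position 58 and 0.22 at the step from the 3′ end to position 59. The step from 59 to 58 was 88.4%, 98.7% and 31.4% in the untreated IP and 28.3%, 29.3% and 29.9% in input of vector. The means were 72.8% ± 36.2 and 29.2% ± 0.813 (SD, n = 3 each), without overlap (exact permutation p = 0.1, the smallest possible). Replicate 3 of the untreated IP lay just above the highest input library. limma called 1 of 7 proline genes in knockdown, Pro-TGG-1-1 (log2 0.90, adjusted p = 0.0499, beside 59.3% of all genes), and 1 of 7 in vector, Pro-CGG-2-1 (log2 1.12, adjusted p = 0.0357, beside 78.1%). The 5′ part went the other way. Relative to the 3′ end it was lower in the untreated IP than in input of vector in 6 of 6 genes. Their log2 changes ran from -7.31 to -6.06, each with a limma adjusted p of 0.00601. limma called 10 of all 25 genes tested (40%), these 6 among them. In vector untreated IP replicates 2 and 3 the 6 genes share only 28 and 20 reads in the 5′ part. Their 3′-end reads are the same in sequence, so these are not separate observations. Summed per amino acid the log2 change was -6.39 (limma adjusted p = 0.00487, beside 50% of 6 amino acids). In knockdown it averaged 26.6% in the untreated IP and 143% in input, without overlap (exact p = 0.1), but 0 of 6 genes were called, beside 0% of all genes, and the summed log2 change was -2.53 (limma adjusted p = 0.156). Whether this change differed between the lines was not tested. Summed per amino acid, none of the 3 T-loop ratios was called for proline between IP and input. In knockdown limma gave adjusted p = 0.0822 for read-through (36.4% of amino acids called), 0.788 for position 59 over the 3′ end (37.5%) and 0.112 for position 58 over 59 (40%). In vector limma gave adjusted p = 0.0884 for read-through (70%), 0.464 for position 59 over the 3′ end (42.9%) and 0.113 for position 58 over 59 (62.5%). Between knockdown and vector IP, and between treated and untreated IP, none of these sums was called for proline either (0% to 12.5% of amino acids called).

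Over the 18 libraries, the anticodons whose summed read-through was most like that of proline were Tyr-GTA (Pearson r = 0.828 on log2 values), Ser-AGA (0.745) and Val-CAC (0.744), out of 15 anticodons of other amino acids that had 20 or more 3′-end reads in every library. These are descriptions over libraries that fall into 6 groups and share their library and depth, and no test was made.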

How the data were processed

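m1A-MAP-seq of small RNA (below 200 nucleotides) gave 18 libraries, grouped by the labels. For every adenosine and library the deposited table holds, per the file headers, 2 raw counts, of covering reads and of mismatched reads. The authors also deposited the mismatch rate as a fraction, and 13050 of 13050 rates equalled mismatched over covering reads within 1e-09. The authors' deposited difference and fold (a ratio) of untreated and treated rates were not used. The submitters' processing notes name Bowtie2 2.2.4, cutadapt 1.9.3, SAMtools 1.3.1 and the build hg38. How reads were counted and sites chosen for listing is not given in the sources used here. 19 other lines were not analysed here. Sequences came from the deposited table, and the 7 genes matched RefSeq tRNA genes by coordinates.

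Members, gene lists and tests were chosen with earlier results of these data known. Sites with 20 or more reads in each library compared were tested across the whole table with a quasi-binomial model in R 4.3.3, two-sided, and called at a Benjamini-Hochberg adjusted p under 0.05. Sites without residual spread, and blocks without a mismatched read in either library, were left untested. That rule departs from the planned test as worded and was chosen after the calls were seen. Coverage ratios per gene (offset 0.5, log2 scale, at least 20 reads in the denominator of every library) were tested with limma 3.58.1 over all genes that have both sites, and reads with edgeR 4.0.16. The AlkB and IP comparisons were fitted with replicate numbers as blocks, because the labels' protocol divides 1 RNA. In no comparison were all same-number correlations above 0.1 (range -0.29 to 0.28). For single values, exact permutation tests over libraries (two-sided) were used, which cannot go below p = 0.1, in families of 20 planned tests and 33 added tests; for the AlkB and IP comparisons an exact permutation of signs within same-number pairs was added (smallest p = 0.25).

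Coverage steps, the 5′ part, sums per amino acid and the neighbours of position 58 were added after the data were examined, as 21 fits per gene, 28 per amino acid, 3 of 5′ reads and 2 tests of neighbours. Named were position 58 and the 3′ end of every proline gene, sites past a threshold, the 2 proline sites per direction with the smallest p in each comparison, and the 3 most similar anticodons. On simulated input data the mismatch model recovered 80% of 20 sites set to 10% with 5 false calls, and 0% of 50 sites changed 8-fold at low rates. limma recovered 100% of 15 genes changed 2-fold with 1 false call, and edgeR 100% of 20 with 3. Alternatives were other read minimums, offsets, normalizations (DESeq2 1.42.0 beside edgeR), the block, and leaving out each library.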

Additional observations from a re-analysis of the deposited data

Results flagged for a closer look

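Reads in the 5′ part of proline tRNAs relative to the 3′ end moved in opposite directions with AlkB in the 2 lines. In knockdown the treated IP had 8.92%, 14.0% and 17.5%, against 14.0%, 37.9% and 27.9% in the untreated IP of the same replicate number, a mean difference of -13.1 percentage points (-19.4 to -7.48 without each library, -7.48 without untreated IP replicate 2). In vector the treated IP had 7.26%, 13.0% and 33.9%, against 5.71%, 0.984% and 0.289% in the untreated IP, a mean difference of 15.7 percentage points (7.81 to 21.2 without each library, 7.81 without treated IP replicate 3). Every knockdown pair was lower with AlkB and every vector pair was higher (exact permutation of signs, p = 0.25 in each line, the smallest possible). The knockdown ranges overlapped (exact permutation p = 0.2). Over all genes tested, proline included, the median log2 change was -0.62 in knockdown and 2.03 in vector, so these directions were not particular to proline. The difference between the lines was not tested. The vector untreated IP values rest on 558, 28 and 20 reads.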

How the results depend on the processing

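Of 609 alternative values for 75 results, 532 kept their direction and side of the threshold or moved within the stated limits, 34 moved and 43 reversed. The count of proline sites called for mismatches was 0 in all 7 comparisons, and the choices that changed it concern sites without residual spread. With every site fitted as it stands it was 5 for AlkB in knockdown, 7 for IP against input in knockdown and 3 for IP against input in vector. With blocks lacking a mismatched read left out it was 4, 7 and 3. Each of those calls had 0 mismatched reads in 1 group, and with the dispersion held at 1 or more the counts were 0. Leaving out each library gave 0 to 1 for knockdown in input (1 without knockdown replicate 2) and 0 to 1 in the treated IP (1 without knockdown replicate 3). For proline genes called in input, read-through (1) ranged from 0 to 1 without each library and was 0 with a replicate block, per anticodon and per amino acid. The 5′ part over the 3′ end (3) ranged from 0 to 2 and was 0 with a replicate block. Position 59 over the 3′ end (1) ranged from 1 to 3 (3 without knockdown replicate 3) and was 5 with a replicate block. Calls for read-through between IP and input ranged from 0 to 5 in knockdown and from 0 to 1 in vector, where they were 2 with no replicate block and 0 per amino acid. The cause of these changes was not tested.

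Values that changed sign without a library are differences smaller than the spread, given in percentage points from lowest to highest. Knockdown minus vector read-through in the untreated IP ran from -13.3 to 13.3, and treated minus untreated in knockdown from -7.87 to 11.04. The log2 ratio of proline to other tRNAs ran from -0.41 to 0.74 in the untreated and -0.53 to 0.11 in the treated IP. Mismatches at position 58 ran from -0.181 to 0.233 in input (0 for the unweighted mean over the 1 site with enough reads), -0.244 to 0.0190 in the untreated and -0.0682 to 0.395 in the treated IP, and -0.158 to 0.0428 for AlkB in vector. Position 59 over the 3′ end ran from -3.29 to 13.3 in the untreated and -19.7 to 2.17 in the treated IP, -9.61 to 2.47 for AlkB in knockdown and -0.986 to 21.9 for AlkB in vector. Position 58 over 59 ran from -0.316 to 5.20 in input, -31.8 to 2.78 in the untreated IP, -1.94 to 24.0 for AlkB in knockdown and -7.90 to 25.7 for AlkB in vector. Position 57 over 58 ran from -2.53 to 0.621 in input, -8.50 to 5.65 in the untreated and -13.4 to 0.608 in the treated IP. In the treated IP the 5′ part over the 3′ end ran from -10.0 to 3.31. On the log2 scale relative to other tRNAs, the 5′ part ran from -0.12 to 0.58 and position 59 from -0.20 to 0.28 in the treated IP, and position 58 over 59 from -0.62 to 0.27 in the untreated and -0.41 to 0.092 in the treated IP. The planned test of the first anticodon base of Pro-AGG could not be run, since that site is not listed. Depth limits mismatches at position 58 in input (134 to 184 proline reads per library) and in the D arm of the vector untreated IP (28 and 20 reads at A14 in replicates 2 and 3).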
